A study of Sus scrofa with 15 samples.

Results

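Cytokines, chemokines and their receptors were examined in the Longissimus muscle of 15 pigs, as the genes whose names on the array begin as interleukins, CCL or CXCL chemokines, CCR or CXCR receptors or members of the TNF ligand and receptor families. The names matched 106 probes of 73 genes. Of these, 78 probes of 51 genes were well above the array's background, a flag set by the scanning software, on at least 7 of the 15 arrays and are described here: 43 probes of 30 ligands, 31 probes of 19 receptors and 4 probes of 2 secreted inhibitors, IL1RN and TNFRSF11B. The pigs came from a pair of lines selected in opposite directions for residual feed intake (RFI), the feed eaten beyond what growth and maintenance predict. There were 7 low-RFI pigs (RFIneg), which eat less than predicted, and 8 high-RFI pigs (RFIpl), all fed ad libitum and sampled at 20 kg body weight, with 1 array of Cy3-labelled total RNA per pig. Sex, litter and age are not given in the sources used here, and no treatment separated the lines. P-values therefore measure the spread between pigs of a line. The arrays also carry a number in their names that runs from 1 to 8 or from 55 to 62. What it stands for is not given in the sources used here. The 8 lower-numbered arrays held 4 low-RFI and 4 high-RFI pigs, the 7 higher-numbered arrays 3 and 4, and each of the 4 slides held arrays of both lines and both runs of numbers.

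Chemokines are small secreted proteins that guide leukocytes along gradients, and they act through receptors with a heptahelical fold such as CCR1 and CXCR4. Interleukins are secreted or membrane-bound messengers whose receptors mostly signal through JAK kinases and STAT factors, whereas the IL1 and IL18 receptors signal through MYD88 and NF-kB, the pathway that most TNF receptors also use. Resting skeletal muscle holds few leukocytes, and its fibres, vessels, fibroblasts and resident macrophages all make some of these proteins. In whole muscle, a change in the number of cells of a type and a change in RNA per cell cannot be told apart.

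On each array, 61.7% to 79.5% of all probes were flagged as well above background. The share was 70.0% ± 4.91 (SD, n = 8) on the lower-numbered and 74.7% ± 3.61 (SD, n = 7) on the higher-numbered arrays (exact permutation test, two-sided, p = 0.0572), and between the lines the same test gave p = 0.793. Between 62 and 78 of the 78 member probes were detected on an array, and no spot was saturated. Pairs of arrays correlated at 0.974 to 0.991 over the tested probes. The arrays numbered 55 (high-RFI) and 59 (low-RFI) stood apart with the highest levels of macrophage, T cell and several chemokine genes, and the genes highest there are also given without them. The tissue label held: 11 of 12 muscle fibre genes were tested and their mean level lay between 8.60 and 9.08 in every pig. Levels here are log2 processed signals with the array's 75th percentile set to 0, so a level of -3 lies below that percentile. A level says nothing across probes, which differ in binding, and only differences of 1 probe between pigs are read.

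Of the 78 probes, 59 were detected on all 15 arrays. None was detected in only 1 line or only 1 run of numbers. The probe nearest the threshold from inside was that of IL12RB1, a chain of the IL12 and IL23 receptors, on 7 arrays (1 lower-numbered and 6 higher-numbered). Nearest from outside were CXCL11, IL2 and IL7R, on 5 arrays each. Among the 22 matching genes with no member probe, CCL28, IL12A, IL13, IL17A, IL1RAPL1, IL22, IL23A, IL23RA, IL4 and IL8 were not well above background on any array. Of the Th2 cytokines, IL4 and IL13 were thus not above background while a probe of IL5, under an older name, was tested, and of the Th17 cytokines, IL17A and IL22 were not above background while IL17F was detected on all 15 arrays. IL4R and IL13RA1, which form an IL4 and IL13 receptor, were also detected in all 15 pigs.

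The probes behind the results were designed stretches of 60 bases. The pair for IL18 is shown whole because they share no sequence and gave the same pattern. The probe for CCL5 is a second reader of that chemokine. The first 30 bases are shown for the other genes whose values lead the comparisons, written 5′ to 3′.
IL18, A_72_P232887: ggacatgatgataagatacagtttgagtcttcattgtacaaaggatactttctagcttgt
IL18, A_72_P652365: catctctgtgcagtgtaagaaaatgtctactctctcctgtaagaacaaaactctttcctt
CCL5, A_72_P115401: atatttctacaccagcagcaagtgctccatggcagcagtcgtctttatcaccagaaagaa
IL10, A_72_P185331, first 30: ctagaagcaattcaattcctctgggaatgt
CXCL9, A_72_P442032, first 30: tctcaacgtcctgatcaaaagaagatgaca
CXCL10, A_72_P165266, first 30: ctgagtgggtgctcttcaaaataaaactaa
IL4R, A_72_P003526, first 30: gaggagagtggaagggaaagcatggagttt
IL4R, A_72_P088511, first 30: tctcaagggagggtaagatccccccgtgct

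The first comparison was between the lines. No ligand, receptor or inhibitor passed the test: limma called 0 of the 78 member probes at an adjusted p under 0.05, beside 0% of the 31984 probes tested. At an unadjusted p under 0.05 there were 2 of 78 member probes, 1 of IL4R and 1 of CCL5, beside 6.64% of all tested probes. The median difference, low-RFI minus high-RFI, was -0.06 (log2) over the members and 0.01 over all probes, and 31 of 78 member probes were higher in low-RFI pigs beside 53.4% of all. No member separated the lines without overlap, as 0.0782% of all probes did.

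IL4R, the shared chain of the IL4 and IL13 receptors, had the smallest p among the members. Its brighter probe lay at 0.80 to 1.85 (median 1.32) in the 7 low-RFI pigs and at 1.39 to 2.46 (median 2.05) in the 8 high-RFI pigs. The ranges overlapped between 1.39 and 1.85, and the low-RFI pig was the higher in 5 of 56 pairs. The difference was -0.67 ± 0.17 (SE, log2), which is 1.59-fold higher in high-RFI pigs, and did not pass the test (limma, adjusted p = 0.466). It was -0.56 on the lower-numbered and -0.74 on the higher-numbered arrays, and between -0.35 and -1.54 within the 4 slides. The value of -1.54 came from a slide whose only low-RFI array was array 1. The other IL4R probe, which shares no bases with it, differed by -0.21 ± 0.11 (adjusted p = 0.796).

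**Figure D1:**
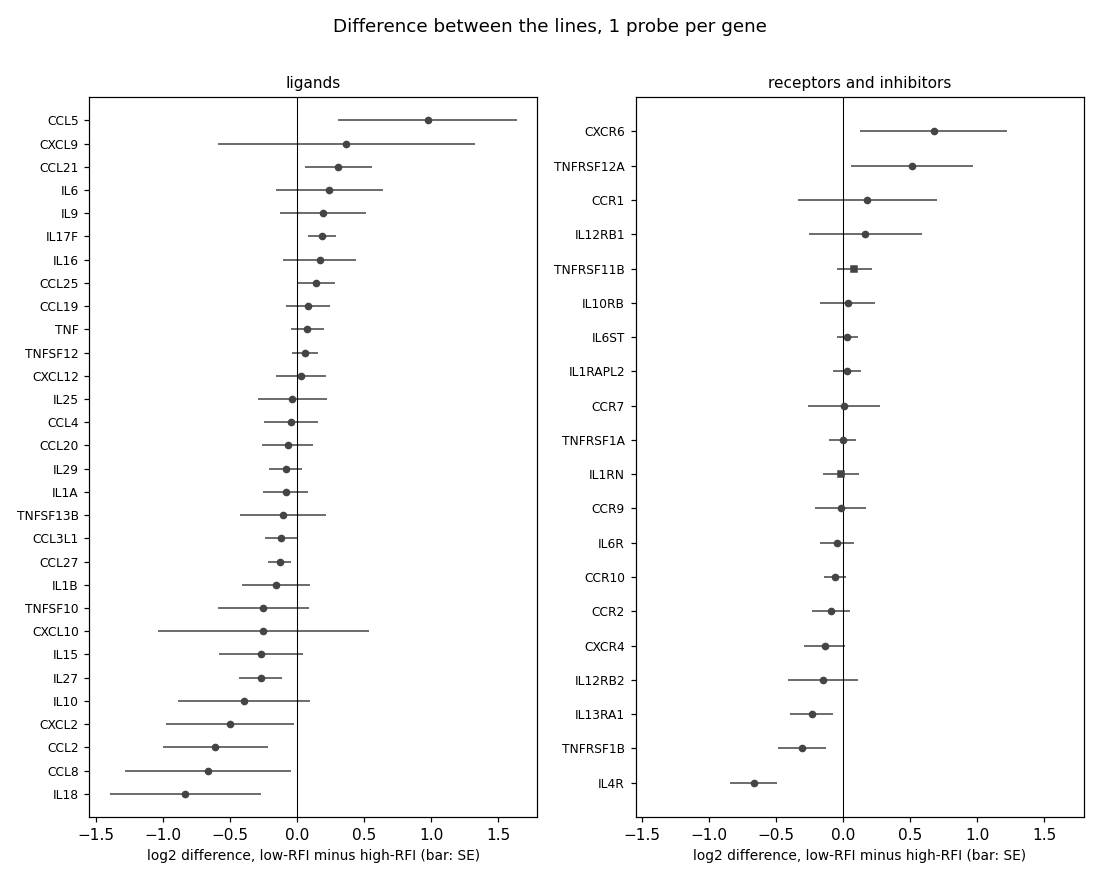
Log2 difference between the lines, low-RFI minus high-RFI, for 1 probe of each of 50 genes (x axis, bars are the SE from limma), ligands on the left and receptors (circles) and inhibitors (squares) on the right. Points lie on both sides of 0 and none passed the test. IL4R, at -0.67, stands farthest from 0 among the receptors on the side of high-RFI pigs, and CCL5, at 0.98, among the ligands on the side of low-RFI pigs.

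Among ligands, CCL5 (RANTES), which attracts T cells and monocytes, had the widest difference toward low-RFI pigs. It lay at -1.04 to 4.14 (median 1.0) in low-RFI and at -1.12 to 2.19 (median -0.29) in high-RFI pigs, a difference of 0.98 ± 0.67 (adjusted p = 0.876). The wide SE comes with 1 low-RFI pig at 4.14, and without single pigs the difference ran from 0.44 to 1.30. The dimmest of the 3 CCL5 probes gave 0.86 ± 0.36 (adjusted p = 0.716). CCL2, the main monocyte attractant, lay toward high-RFI pigs: -0.81 to 1.66 (median -0.24) against -0.30 to 2.06 (median 0.57), a difference of -0.61 ± 0.39 (adjusted p = 0.855). It was -0.89 on the lower-numbered arrays and -0.13 on the higher-numbered ones.

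The remaining genes named by rank for the lines moved by less than the spread between pigs. Toward low-RFI pigs these were IL17F (0.19 ± 0.11), the lymph node chemokine CCL21 (0.31 ± 0.25), the T cell chemokine receptor CXCR6 (0.68 ± 0.55) and TNFRSF12A, the receptor of TWEAK (0.51 ± 0.45). Without single pigs CXCR6 ran from 0.27 (without the low-RFI pig of array 59) to 1.02, CCL21 from 0.15 to 0.47 and TNFRSF12A from 0.33 to 0.90. Toward high-RFI pigs they were TNFRSF1B, the second TNF receptor (-0.30 ± 0.18, but 0.17 by its other probe), IL27 (-0.27 ± 0.16) and IL13RA1 (-0.23 ± 0.16). Their adjusted p-values in limma lay between 0.815 and 0.941. For TNFRSF12A the difference was 0.98 on the lower-numbered and -0.19 on the higher-numbered arrays, and its other probe differed by 0.03 between the lines. TNF itself differed by 0.08 ± 0.12 and IL1B by -0.16 ± 0.25 (brightest probes). The 3 IL6 probes differed in direction, at 0.24 ± 0.40, -0.18 ± 0.37 and -1.21 ± 0.71 (adjusted p from 0.829 to 0.987), and were well above background on 11, 10 and 8 arrays.

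The second comparison was between the runs of array numbers, with line as a term of the model. The interleukins IL18 and IL10 passed the test, both higher on the higher-numbered arrays. Limma called 4 of 78 member probes, among them both probes of IL18 and 1 of IL10, beside 2.28% of all tested probes. All 4 were higher on the higher-numbered arrays, where 1.45% of all probes were called. None was higher on the lower-numbered arrays, where 0.829% of all probes were.

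IL18 is an inflammasome product of macrophages that drives interferon-gamma from T and NK cells. On the lower-numbered arrays its brighter probe lay at -2.12 to -0.64 (median -1.37), and on the higher-numbered at -0.88 to 2.17 (median 0.69). The higher-numbered pig was the higher in 52 of 56 pairs, and only 2 low-RFI pigs of the later run, at -0.88 and -0.82, fell among the earlier ones. The difference was 1.75 ± 0.37 (3.35-fold, adjusted p = 0.0265). The other probe gave 1.65 ± 0.35 (adjusted p = 0.0278), and over the 15 pigs the 2 probes correlated at 0.998. The difference was 1.12 within low-RFI and 2.28 within high-RFI pigs, and between 0.93 and 3.40 within the slides. The value of 3.40 came from a slide whose only higher-numbered array was array 55. The call was lost without the low-RFI pig of array 62 (1.61, adjusted p = 0.0575) or the high-RFI pig of array 8 (1.65, adjusted p = 0.0547).

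IL10, which restrains macrophage and T cell activation, lay at -4.82 to -2.81 (median -4.18) on the lower-numbered and at -3.00 to -1.20 (median -2.41) on the higher-numbered arrays. Only the low-RFI pig at -2.81 in the lower run reached into the higher range. The difference was 1.56 ± 0.31 (2.95-fold, adjusted p = 0.0220), with 54 of 56 pairs in that direction, 1.44 within low-RFI and 1.67 within high-RFI pigs, and 1.25 to 2.41 within the slides. The value of 2.41 came from the slide whose only higher-numbered array was array 55. IL10 was called in all 15 fits that left out 1 pig (adjusted p from 0.00984 to 0.0473). A second IL10 probe missed the detection threshold: it was well above background on 4 arrays, all higher-numbered. With 7 or 8 arrays, neither IL18 nor IL10 passed within a line alone (adjusted p from 0.113 to 0.437).

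**Figure D2:**
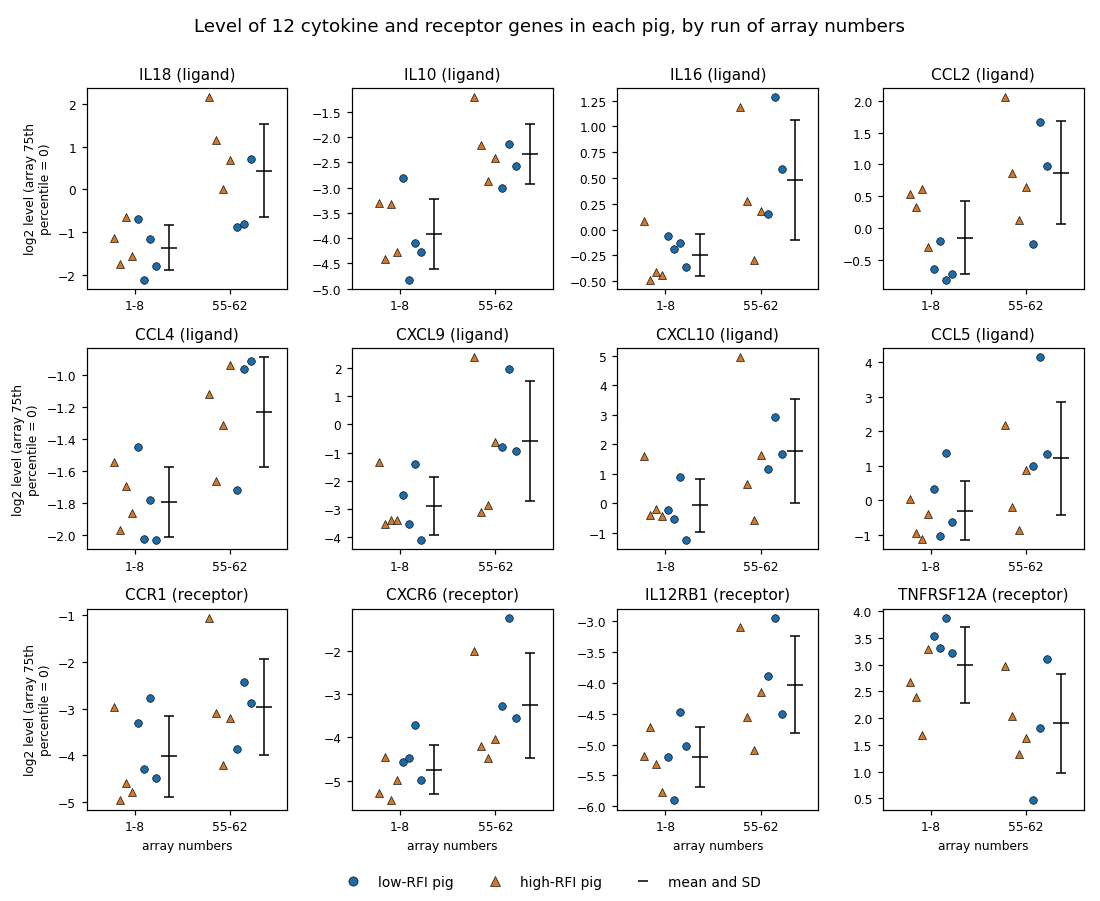
Log2 level (y axis, the array's 75th percentile is 0) of 8 ligands and 4 receptors in each of 8 pigs of arrays 1 to 8 and 7 pigs of arrays 55 to 62. Circles are low-RFI and triangles high-RFI pigs, and bars give the mean and SD of a run. For IL10 only the pig at -2.81 in the lower run reaches into the range of the higher run, which starts at -3.00, and the 2 highest points of CXCL9, CXCL10 and CCL5 are the pigs of arrays 55 and 59.

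These calls depended on the background correction. With normexp on the mean and background signals in place of the processed signal, 65 of 31984 probes (0.203%) and 0 of the 78 member probes were called between the runs. At an unadjusted p under 0.05 there remained 23 of 78 member probes, beside 3541 of all 31984. IL18 was then 1.34 (adjusted p = 0.0649) and IL10 0.45 (0.287). In the other direction, slide as a fixed block raised the count to 10 of 78 member probes beside 3.68% of all probes, and added CCL2, CXCR6, IL12RB1, IL16 and TNFSF10. The IL12RB1 probe reached the detection threshold through the higher-numbered arrays, so its call is not read as support.

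At an unadjusted p under 0.05, 26 of 78 member probes were higher on the higher-numbered arrays, beside 9.08% of all tested probes, and 4 were lower, beside 10.4%. Ligands and receptors differed in these counts: 20 ligand probes of 43 were higher and 2 lower, against 6 receptor probes of 31 higher and 2 lower. The median difference was 0.44 over ligand probes, 0.02 over receptor probes and -0.04 over all tested probes. Among the probes detected on all 15 arrays, where the filter cannot favour a run, the medians were 0.72 over 33 ligand probes and 0.01 over 23 receptor probes, beside -0.04 over all 26025. These are descriptions of the probes, several of which share a gene. With 1 probe per gene, 19 of 30 ligands and 12 of 19 receptors were higher on the higher-numbered arrays, with medians of 0.35 and 0.18. Of these, 12 ligands and 5 receptors were higher at an unadjusted p under 0.05 in limma, and 2 ligands and 2 receptors were lower. The difference between ligands and receptors was not tested.

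**Figure D3:**
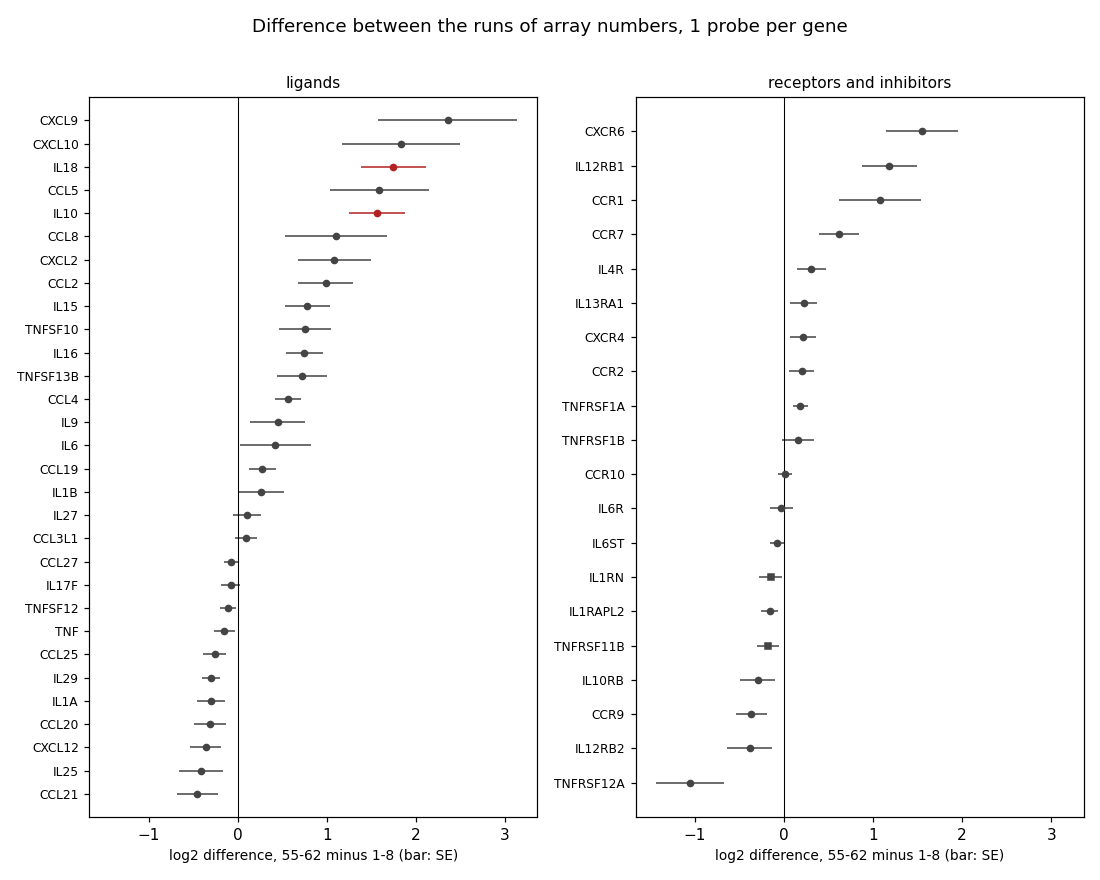
Log2 difference between the runs, arrays 55 to 62 minus arrays 1 to 8, for 1 probe of each of 50 genes (x axis, bars are the SE from limma), ligands on the left and receptors (circles) and inhibitors (squares) on the right. IL18 and IL10 (red) passed at an adjusted p under 0.05. The upper end of the left panel holds chemokines and interleukins, in the order CXCL9 (2.35), CXCL10 (1.83), IL18 (1.75), CCL5 (1.59) and IL10 (1.56), and TNFRSF12A, at -1.06, lies lowest on the right.

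The chemokine ligands had the widest spread. Their median difference was 0.74 over 20 probes, of which 14 were higher on the higher-numbered arrays and none was called. CXCL9 and CXCL10 are interferon-induced attractants of T cells through CXCR3. CXCL9 lay at -4.09 to -1.33 (median -3.39) on the lower-numbered and at -3.11 to 2.37 (median -0.80) on the higher-numbered arrays, a difference of 2.35 ± 0.78 (adjusted p = 0.116). CXCL10 lay at -1.25 to 1.61 (median -0.30) and at -0.56 to 4.94 (median 1.64), a difference of 1.83 ± 0.66 (adjusted p = 0.147). The third ligand of CXCR3, CXCL11, was well above background on 0 of 8 lower-numbered and 5 of 7 higher-numbered arrays and reached -1.74 on the array numbered 55. Against the lowest signal called above background on each lower-numbered array, its mean on the higher-numbered arrays was only 1.01-fold higher. No run difference is therefore read for CXCL11.

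A pair of pigs carried much of this spread: the high-RFI pig of array 55 and the low-RFI pig of array 59. They had the highest values of CXCL9 (2.37 and 1.96), CXCL10 (4.94 and 2.91), CCL5 (2.19 and 4.14) and CXCR6 (-1.99 and -1.23) among the 15. Array 55 was the highest of all arrays for 15 of the 51 genes, 10 of them ligands and 5 receptors, whereas over all tested probes it was the highest for 7.30%. Array 59 was highest for 4 genes. Without both arrays, 419 of 31984 probes (1.31%) and 2 of 78 member probes, both of IL18, were called. The differences were then 1.66 for IL18 (adjusted p = 0.0339), 1.29 for IL10 (0.0606), 1.27 for CXCL9 and 0.98 for CXCL10. Removing array 55 or array 59 alone left IL18 and IL10 called. These arrays were left out after their values were seen.

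**Figure D4:**
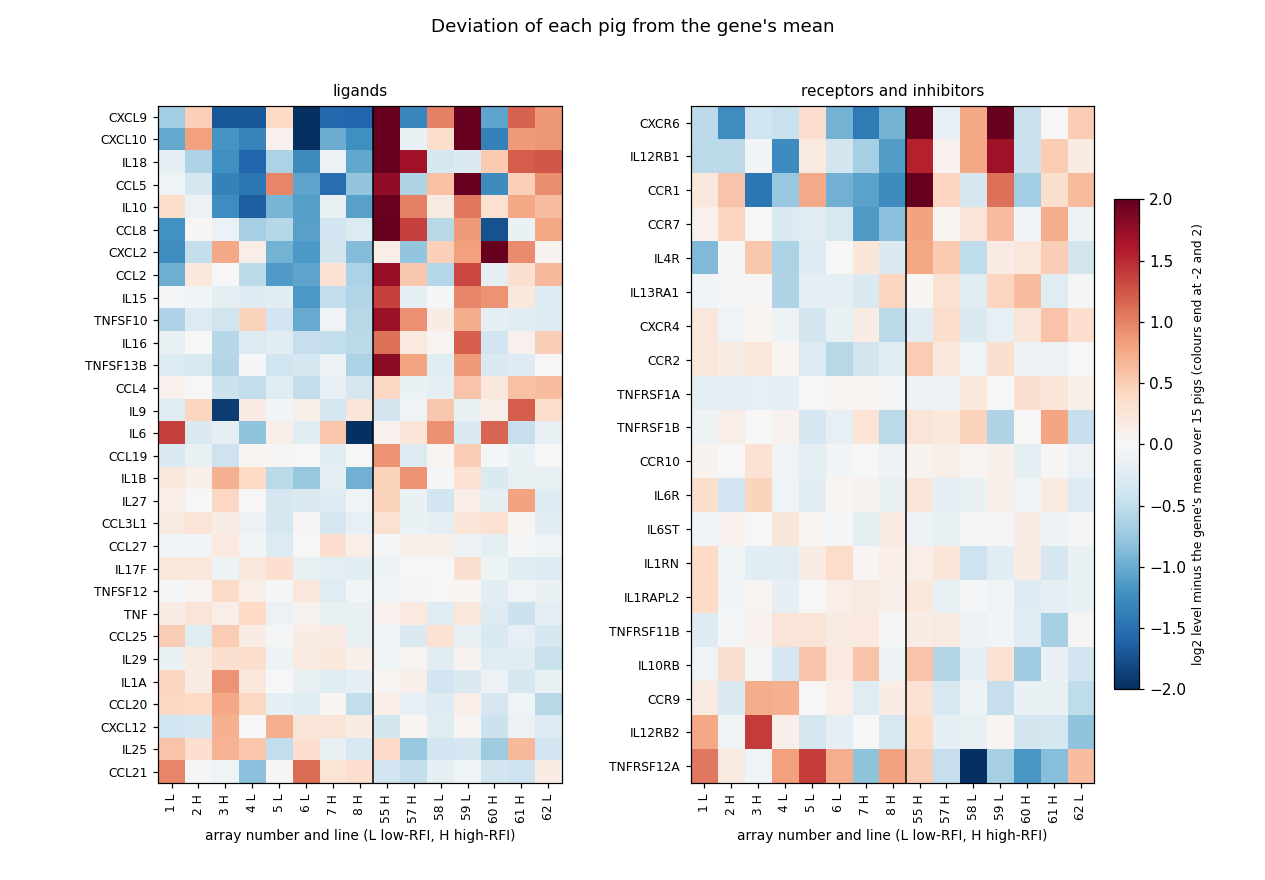
Log2 level of each pig minus the gene's mean over 15 pigs, as colour (red higher, blue lower, ending at -2 and 2), with 50 genes as rows ordered by the difference between runs and the arrays as columns by number, L for low-RFI and H for high-RFI. A vertical line parts arrays 1 to 8 from 55 to 62. Red fills the upper rows of arrays 55 and 59, as for CXCL10 at 4.94 and 2.91, and the lowest receptor row, TNFRSF12A, runs from 0.46 to 3.88 in level.

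Several other ligands lay higher on the higher-numbered arrays without passing. CCL4, an attractant of monocytes and T cells, differed by 0.56 ± 0.15 (adjusted p = 0.0595). The CD4 ligand IL16 differed by 0.75 ± 0.20 (0.0676), and CCL2 by 0.98 ± 0.31 (0.102). The NK and memory T cell growth factor IL15 differed by 0.78 ± 0.25 (0.109) and the neutrophil attractant CXCL2 by 1.08 ± 0.41 (0.161). CCL5 differed by 1.59 ± 0.55 (0.133) and by 0.81 without arrays 55 and 59. CCL8, a monocyte attractant, reached 0.24 on array 55 from -5.24 on array 60, both high-RFI pigs of the later run, and differed by 1.10 ± 0.57 (0.308), or by 0.62 without array 55. Without arrays 55 and 59, CCL8 differed by 0.44, CCL2 by 0.56, IL15 by 0.47, IL16 by 0.45, CCL4 by 0.48 and CXCL2 by 1.10 (adjusted p from 0.114 to 0.586).

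The TNF family showed both patterns. The death ligand TRAIL (TNFSF10) differed by 0.75 ± 0.29 (adjusted p = 0.176) and the B cell survival factor BAFF (TNFSF13B) by 0.72 ± 0.28 (0.169). Without arrays 55 and 59 they differed by 0.42 and 0.35, and with normexp by 0.59 and 0.09. TNF differed by -0.15 ± 0.12, and TWEAK (TNFSF12) by -0.12 ± 0.09 with levels of 4.86 to 5.49 in all pigs. Of the TNF receptors, TNFRSF1A lay at 3.88 to 4.39 in all 15 pigs and differed by 0.18 ± 0.09 (0.269). TNFRSF12A, the TWEAK receptor that damaged muscle induces, was lower on the higher-numbered arrays by its brighter probe only: 1.68 to 3.88 (median 3.25) against 0.46 to 3.11 (median 1.83), a difference of -1.06 ± 0.38 (0.148). Its other probe differed by 0.05 ± 0.16. The lowest value of the brighter probe belonged to the low-RFI pig of array 58.

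Among receptors, 10 of 11 chemokine receptor probes but 4 of 13 interleukin receptor probes were higher on the higher-numbered arrays, beside 43.1% of all tested probes. The probes stand for 8 genes in each family. Only 5 of the 11 were detected on all 15 arrays, against 11 of the 13, and the contrast between the families was not tested. CXCR6, the receptor of CXCL16, differed by 1.55 ± 0.40 (adjusted p = 0.0568) and IL12RB1 by 1.18 ± 0.31 (0.0581). CXCR6 was well above background on 4 of 8 and 7 of 7 arrays and IL12RB1 on 1 of 8 and 6 of 7. IL12RB1 thus reached the detection threshold through the higher-numbered arrays, and its difference is not read as support. Normexp left differences of 0.32 for CXCR6 and 0.01 for IL12RB1. CCR1, another receptor of CCL5, differed by 1.07 ± 0.46 (0.214). Without arrays 55 and 59, CXCR6 differed by 0.90 (adjusted p = 0.0579), IL12RB1 by 0.78 (0.130) and CCR1 by 0.61 (0.406). CCR7, the lymph node homing receptor, differed by 0.62 ± 0.23 (0.150). With normexp CCR1 differed by 0.23 and CCR7 by -0.05. These CCR1 and CCR7 probes were each well above background on 5 of 8 and 7 of 7 arrays. The brightest probes of CXCR4, CCR2 and CCR10 differed by 0.21, 0.20 and 0.01. IL6ST, the signalling chain shared by the IL6 family, differed by -0.08 ± 0.08 and IL10RB, a chain of the IL10 receptor, by -0.30 ± 0.20.

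A few genes lay lower on the higher-numbered arrays, none past the test. IL29 (interferon lambda) lay at -1.35 to -0.87 against -1.67 to -1.16, a difference of -0.30 ± 0.10 (adjusted p = 0.112). CXCL12, the stromal ligand of CXCR4, differed by -0.36 ± 0.17 (0.256). The gut homing receptor CCR9 and its ligand CCL25 differed by -0.37 ± 0.17 (0.254) and -0.26 ± 0.13 (0.274). The inhibitors IL1RN, the IL1 receptor antagonist, and TNFRSF11B, the RANKL decoy osteoprotegerin, differed by -0.15 ± 0.13 and -0.18 ± 0.12.

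The line difference itself did not change between the runs beyond error. Limma's interaction term called 0 of 78 member probes, beside 0% of all tested probes. At an unadjusted p under 0.05 there was 1 member probe, beside 5.61% of all: IL1RN, at -0.51 ± 0.23 (adjusted p = 0.878). For IL18 the line difference was -0.17 on the lower-numbered and -1.33 on the higher-numbered arrays, a change of -1.17 that did not pass.

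Ligands were set against receptors within each run, and CXCL10 against the ligands CXCL9 and CCL5, over 16 relations in all. CXCL9 and CXCL10, a pair added after their values were seen, varied together: r = 0.944 and rho = 0.952 over 8 lower-numbered pigs (exact permutation test, two-sided, adjusted p = 0.00754 and 0.0183), and r = 0.923 and rho = 0.857 over 7 higher-numbered pigs (adjusted p = 0.0159 and 0.0952). Without the 2 pigs farthest from the median of CXCL9, r was 0.770 and 0.816. CCL2 and its receptor CCR2 gave r = 0.876 and rho = 0.857 over the higher-numbered pigs (exact permutation test, adjusted p = 0.0307 and 0.0952), r = 0.819 without the 2 farthest, and r = 0.302 over the lower-numbered pigs (adjusted p = 0.661). CXCL10 and CCL5 gave r = 0.757 and rho = 0.929 over the higher-numbered pigs (exact permutation test, adjusted p = 0.169 and 0.0540). Over the lower-numbered pigs they gave r = 0.596 and rho = 0.429 (adjusted p = 0.235 and 0.532). This pair and the pairs CXCL12 and CXCR4, CCL21 and CCR7, TNFSF12 and TNFRSF12A, and IL10 and IL10RB did not pass in either run.

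The signalling genes downstream of these receptors were read as fixed lists, 1 probe per gene. Over all tested probes, 43.1% were higher on the higher-numbered arrays, 1.45% were called there, and the median difference was -0.04. Between the lines no gene of any list was called. Of 18 tested JAK, STAT, SOCS and phosphatase genes, 11 were higher on the higher-numbered arrays and none was called. The leukocyte phosphatase PTPN6 differed by 1.13 ± 0.29 (adjusted p = 0.0545). SOCS3, the feedback inhibitor of IL6 signalling, had a line difference of -0.997 ± 0.432 (adjusted p = 0.730). Of 15 tested TNF and NF-kB genes, 8 were higher, 7 were lower and none was called. The smallest p-values in limma belonged to CHUK (-0.34 ± 0.10, adjusted p = 0.0759) and MAP3K7 (-0.26 ± 0.08, adjusted p = 0.106), both lower. RELA differed by -0.15 ± 0.10 and NFKBIA by 0.07 ± 0.16. Of 9 tested genes of the IL1, IL18 and Toll-like receptor pathway, 8 were higher and 1 was called. That gene, TLR3, a sensor of double-stranded RNA, rose by 0.76 ± 0.14 (adjusted p = 0.0146). CASP1, the protease that matures IL18, differed by 1.44 ± 0.41 (0.0802). Of the 9 other cytokine genes tested, 4 were higher, and of 5 other chemokine genes 4 were higher, with none called. With normexp no gene of any list was called, leukocyte markers included. Without arrays 55 and 59, TLR3 differed by 0.58 (adjusted p = 0.0254) and was still called.

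Leukocyte markers moved with the same arrays. Of 12 macrophage and monocyte markers, 5 were on the array and tested. All 5 were higher on the higher-numbered arrays. FCGR1A was well above background on 0 of 8 lower-numbered and 7 of 7 higher-numbered arrays and entered the test through the latter alone. Neither its call nor its part in the count, mean and median of the 5 is therefore read as support. FCGR1A was at least 2.51-fold higher there, a bound taken against the lowest signal called above background on each dim array. The mean level of the 5, FCGR1A counted, lay at -1.99 to -0.82 on the lower-numbered and at -1.04 to 1.11 on the higher-numbered arrays. It was highest on arrays 55 (1.11) and 59 (0.04). The other 4 were not called. AIF1 differed by 1.07 ± 0.30 and LYZ by 1.73 ± 0.56, CD163 by 0.45 ± 0.26 and CD14 by 0.07 ± 0.18, and the markers CD68, CSF1R, ITGAM, MRC1, ADGRE1, MSR1 and MARCO had no probe of that name. Of 14 T and NK cell markers, 8 were tested, 7 were higher and 1, CD2, was called (2.05 ± 0.49, adjusted p = 0.0411). Their mean level lay at -4.12 to -2.83 against -3.65 to -1.38, highest on arrays 59 (-1.38) and 55 (-2.0). CD3D differed by 1.28 ± 0.37, CD3G by 1.72 ± 0.51 and CD8A by 1.27 ± 0.43, while LCK differed by -0.09 ± 0.09. CD2, CD3G and GZMA were each well above background on only 9 arrays. Their means on the lower-numbered arrays were -5.39, -5.17 and -5.30. These lie below -4.93, the mean of the lowest signals called above background on those arrays. The call of CD2 thus rests on lower-numbered arrays with signals near background and is not read as support. CD4, CD8B and PRF1 did not reach the detection threshold. Without arrays 55 and 59, 4 of the 5 macrophage markers, FCGR1A counted, and 7 of the 8 T and NK cell markers were still higher. Their medians were 0.68 and 0.49 in place of 1.07 and 1.07, and CD2 was no longer called (adjusted p = 0.0839).

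The other cell lists moved little. Neither of the 2 B cell markers on the array reached the threshold. None of the 3 neutrophil, 2 mast cell, 5 endothelial, 3 fibroblast, 5 adipocyte or 11 muscle fibre markers tested was called, and the medians of their differences lay between -0.42 and 0.07. The part of leukocyte content in the differences of IL18, IL10 and the chemokines was not tested. Between the lines, the T and NK cell mean lay at -4.12 to -1.38 in low-RFI and at -4.05 to -2.0 in high-RFI pigs, and the macrophage mean at -1.99 to 0.04 and -1.75 to 1.11.

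For 21 genes with several member probes, the probes could be set against each other. All probes of a gene had the same direction between runs in 15 genes and between lines in 12. The probes of IL18, CXCL10, CCL5 (the brighter 2) and CCL2 correlated at 0.994 to 0.998 over the 15 pigs. The probes of TNF (-0.488), TNFRSF1B (-0.443) and TNFRSF12A (0.0193) did not vary together, and the second TNFRSF12A probe differed between runs by 0.05 ± 0.16 in place of -1.06. Probes of IL1RN, IL6, TNFRSF11B, TNFRSF1A and TNFRSF1B also differed in direction between runs. The probes of 3 genes shared at least 20 bases and are not independent: CCR1 and CXCL2, shown here, and IL6R with 45 shared bases, whose pair nevertheless correlated at 0.0498, 1 of them being detected on 8 of 15 arrays.
CCR1, bases shared by both probes: ttgcaggttgggatcactttcccaagac
CXCL2, bases shared by both probes: aatgccttgtttagagttaattacactgt
TNFRSF12A, A_72_P063236, first 30: tcagatatactgaatttcctccacagggga
TNFRSF12A, A_72_P440626, first 30: cagtctctggctctgggagggagggagaat

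**Figure D5:**
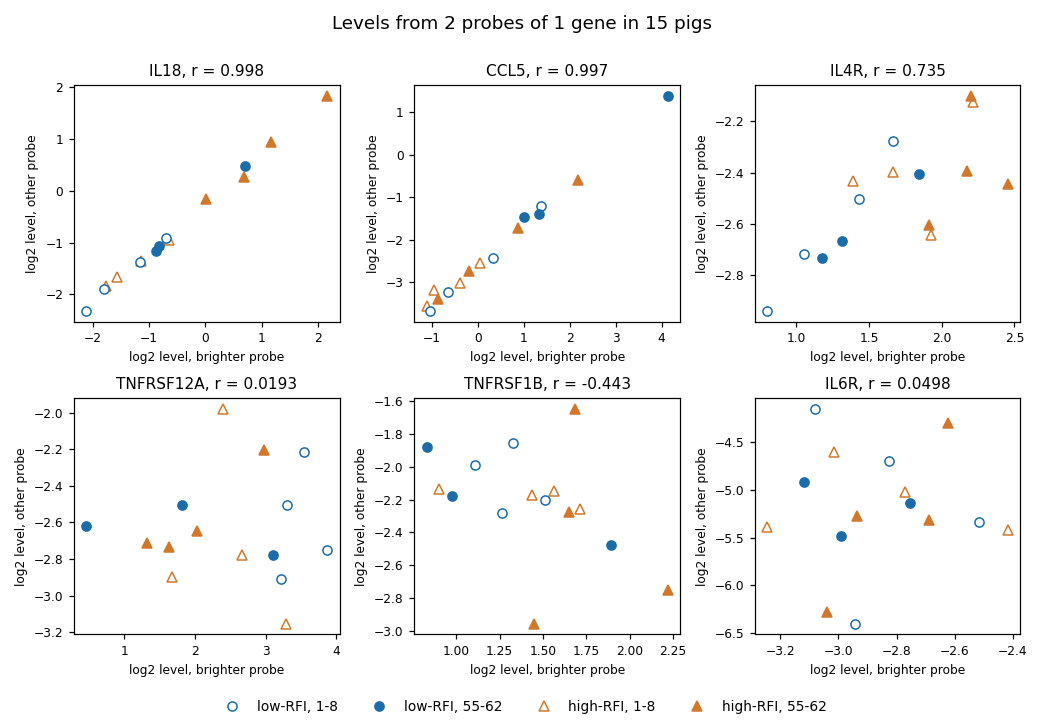
Log2 level from the brighter probe of a gene (x axis) against another probe of it (y axis) in 15 pigs, for IL18, CCL5, IL4R, TNFRSF12A, TNFRSF1B and IL6R, circles for low-RFI and triangles for high-RFI pigs, filled for arrays 55 to 62 and open for 1 to 8. IL18 (r = 0.998) and CCL5 (r = 0.997) lie on a line, IL4R (0.735) is looser, and TNFRSF12A (0.0193), IL6R (0.0498) and TNFRSF1B (-0.443) show no rising line.

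The gene names on the array are old. Of the 78 member probes, 62 have an accession in the RefSeq table of the pig, and each of these has the same symbol there. Another 9 tested probes carry a RefSeq symbol that fits the family but an older name on the array, and so lie outside the 78. Among them both probes of CXCL16, the ligand of CXCR6, named SR-PSOX on the array, rose on the higher-numbered arrays by 1.13 (adjusted p = 0.0407) and 1.14 (adjusted p = 0.0320). They did not pass with normexp (0.96 and 0.85) or without arrays 55 and 59 (0.995 and 1.02). IL5 differed by 0.54 (adjusted p = 0.0892) between runs and by 0.69 (adjusted p = 0.506) between lines, and TNFSF13 (APRIL), a B cell survival factor, by 0.37 (0.243) between runs. The IL5 probe was dim, with means of -5.36 on the lower-numbered and -4.88 on the higher-numbered arrays, and its run difference reversed to -0.13 with normexp.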

How the data were processed

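One array per pig was read from the scanner files. Per the file headers, Agilent Feature Extraction 10.7.3.1 made the processed signal, an intensity already corrected for background by the authors' software, and the flags for spots well above background, saturated or non-uniform. R 2.10.0 is named in the submitters' processing notes. The deposited value table holds log2 values that equal the processed signal minus the array's median, within 4.93e-08 over 29364 spots, and served as an alternative. Here, log2 processed signals were expressed relative to the 75th percentile of all probes other than controls, non-uniform spots were left out and spots of a probe averaged. Probes well above background on at least 7 of 15 arrays, with 4 values per line, were tested (31984 of 43603). Differences came from limma 3.58.1 in R 4.3.3 (lmFit, eBayes) with Benjamini-Hochberg adjustment over all tested probes: line alone, run with line, and their interaction. The script was checked on simulated data. A gene is given by its brightest member probe on average. Genes were named by rank of p in each direction and comparison, by size of SD, and by ligand and receptor pair. The members, lists and rules were chosen with earlier results of these data known. The number of arrays limits precision. Counts cover all members and list genes, but the values of 1 member and of 2 list genes are not reported here. No genome or sequence table was used here, so no positions are given.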

Additional observations from a re-analysis of the deposited data

Results flagged for a closer look

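In 104 groups of named genes, by line or by run, Dixon's criterion set 3 single values apart. Chance alone sets apart about 1 in 20 groups. CXCR6 in the high-RFI pig of array 55 was at -1.99, with the next of its line at -4.04. CXCL10 in the same pig was at 4.94, with the next at 1.64. TNFSF12 in the high-RFI pig of array 3 was at 5.49, with the next at 5.15.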

How the results depend on the processing

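The line comparison and the interaction called 0 member probes under every alternative run. Replicate numbers were not used as pairs in the main fits. Same-numbered pigs of the lines deviated together at -0.0122 to 0.269, above 0.1 in 5 of 7 pairs, and 2 correlated best with their own number. Same-numbered pigs always came from the same run, so these values cannot decide whether the numbers pair the pigs. The replicate block also called 0 member probes between lines. Between runs, 4 member probes were called, and 3 to 6 under quantile or median scaling, the deposited values, other filters, a trended robust fit, 1 probe per gene and no term for line. Over all tested probes, 2.28% were called, and 2.38% and 2.01% under quantile and median scaling. The members' count was 0 with normexp (0.203% of all tested probes), within low-RFI (0%), within high-RFI (0.0875%) and at an adjusted p under 0.01. It was 7 with array weights (4.6% of all) and 10 with slide as a block (3.68%). Added after seeing the data, it was 10 at an adjusted p under 0.10 and 2 without arrays 55 and 59 (1.31%). Without single pigs it ran from 1 to 6: 1 (IL10) without high-RFI replicate 4, 2 without low-RFI replicate 4 or 7. Calls in the lists were 3 (TLR3, CD2 and FCGR1A, the last admitted through 1 run alone), and 0 with normexp. Values reversed for CCR7 between runs with normexp (-0.0476) and for TNFRSF12A between lines within arrays 55 to 62 (-0.192). Of the other values of single genes, 929 kept their direction and side of the threshold, 16 lost it and 9 gained it. The cause of these shifts was not tested. The fits within a line also held fewer arrays. Signal over background limits dim probes: CXCR6, IL12RB1 and CD2 were well above background on 11, 7 and 9 of 15 arrays.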
